A study of Arabidopsis thaliana with 74 samples.

Results

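CHUP1 (AT3G25690), CLSY4 (AT3G24340) and DHAD (AT3G23940) are 3 genes on chromosome 3 of Arabidopsis thaliana that the study picked out as candidates for leaf area heterosis. Their small RNA (sRNA) was read from the table of 200-bp windows that hold enough CHH cytosines, where H is A, C or T. Every window that overlapped a gene or lay within 2 kb of it was taken. This gave 520 windows at 50-bp steps of 2379342 in the genome, or 130 non-overlapping windows of 594835, and summing the non-overlapping windows gave 3 gene regions of 37899. Coordinates are on TAIR10.

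The libraries were made from aerial rosettes harvested 27 days after sowing, with the rosettes of the cultivation replicates pooled. They came from 36 F1 epiHybrids, the 36 paternal epiRILs that gave rise to them, and the maternal line msCol. The 2 msCol libraries, called msCol12 and msCol16, are of progeny that go back to 2 sibling plants. An epiRIL is an inbred line from a cross of the DNA methylation mutant ddm1-2 to wild-type Columbia. It carries a wild-type DDM1 gene but still holds stretches of chromosome that lost methylation in the mutant, and each line holds a different set. msCol is a male-sterile Columbia line that carries ms1, with a Landsberg segment around MS1 on chromosome 5. An epiHybrid therefore has 1 set of chromosomes from an epiRIL and 1 from msCol, and the study took the families from the extremes and the middle of leaf area heterosis. Each epiHybrid and each epiRIL is 1 library, so lines and not plants of a line were the replicates, and with 2 msCol libraries p-values against msCol rest on the spread of the other groups. The counts include reads of every length, so that the 21-nt reads of a miRNA and longer siRNA cannot be told apart.

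In plants, small interfering RNAs made from transcripts of RNA polymerase IV guide the methyltransferase DRM2 to matching DNA, which is then methylated in all sequence contexts. This RNA-directed DNA methylation (RdDM) is known for silencing transposons and repeats, and it also acts near genes. CLSY4 encodes a chromatin remodeller of the CLASSY family, which brings polymerase IV to a subset of its targets. DHAD encodes dihydroxyacid dehydratase, a chloroplast enzyme of valine, leucine and isoleucine synthesis. CHUP1 encodes an actin-binding protein of the chloroplast outer envelope that is needed to position and move chloroplasts in response to light.

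The libraries held between 20995764 and 27084303 counts in non-overlapping CHH windows. After scaling by TMM, msCol16 stood apart, with its counts divided by 0.684 relative to the average library, against 1.07 for msCol12 and between 0.809 and 1.17 for the other libraries. Over the most variable windows 34 of 36 epiHybrids resembled their own father more than any other epiRIL, the exceptions being families 12 and 158. In families 12 and 568 the epiHybrid and the epiRIL lay in the opposite order to the rest around MS1. These libraries were kept under their labels.

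The 3 genes held sRNA in different places. CLSY4 had almost none in the gene. Of the counts of its region, 99.7% lay in the upstream flank, 0.161% in the gene and 0.0997% downstream. The gene is on the minus strand, and its flank held a peak over MIR8169 at chr3:8836201-8836400 and a second, broader peak at chr3:8836801-8837600, which reaches the start of SYP32, a gene for a syntaxin of the Golgi. DHAD resembled it, with its counts outside the gene. 97.2% lay in the downstream flank, between AT3G23950 and AT3G23955, 2.23% in the gene and 0.523% upstream. CHUP1 differed from both, since 80.7% of its counts lay in the gene, 12.1% downstream and 7.19% upstream.

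**Figure D1:**
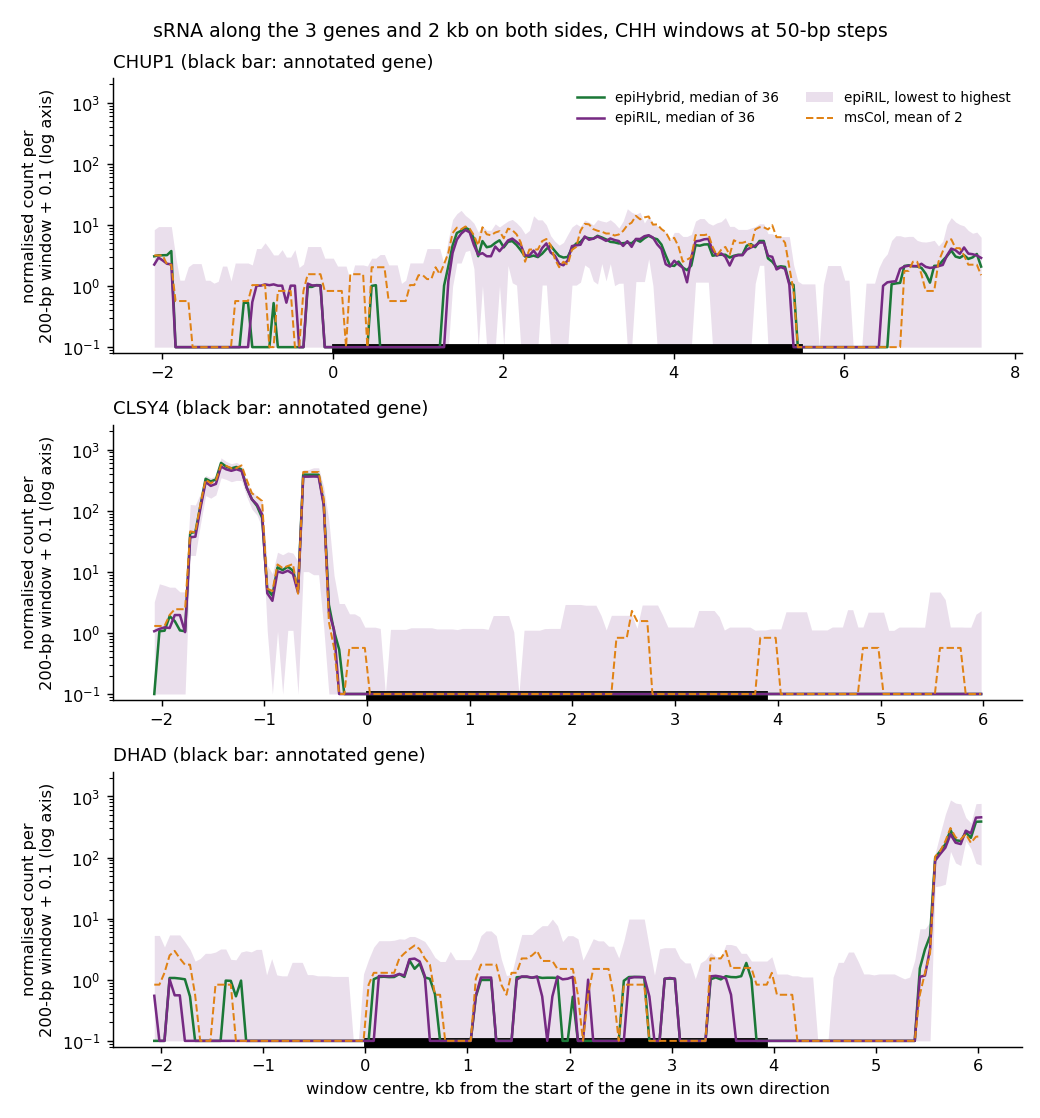
Normalised sRNA count per 200-bp CHH window, plus 0.1 on a log axis, against the distance of the window's centre from the start of the gene, for CHUP1, CLSY4 and DHAD. Green and purple lines are medians of 36 epiHybrids and 36 epiRILs, the shaded band runs from the lowest to the highest epiRIL, and the dashed line is the mean of 2 msCol libraries. CLSY4 has a pair of peaks upstream and DHAD 1 peak at the downstream edge, and in the peak of CLSY4 nearest to the gene the band reaches down to 8.87 counts.

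The peak nearest to CLSY4 covers MIR8169, annotated by RefSeq at chr3:8836256-8836384 on the plus strand. Its transcript and its mature miRNA are shown because this is where sRNA was lost. Capitals mark the mature miRNA in the transcript and the seed, bases 2 to 8, in the mature sequence.
MIR8169 transcript: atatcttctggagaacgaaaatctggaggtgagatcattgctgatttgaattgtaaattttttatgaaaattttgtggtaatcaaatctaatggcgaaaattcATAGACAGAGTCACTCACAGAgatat
miR8169: aTAGACAGagtcactcacaga

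The windows of the other peaks that the comparisons turn on are shown with them, read from the plus strand. The CLSY4 and the first DHAD window are those called between epiHybrids and epiRILs, the last DHAD window is the one where most epiRILs exceeded both msCol libraries, and the CHUP1 window lies in exon 6 and is one of the 3 with the highest mean in that gene.
CLSY4, chr3:8837201-8837400: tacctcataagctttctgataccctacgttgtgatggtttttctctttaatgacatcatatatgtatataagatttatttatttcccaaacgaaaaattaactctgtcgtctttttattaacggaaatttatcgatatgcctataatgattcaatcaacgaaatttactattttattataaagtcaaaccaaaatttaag
DHAD, chr3:8654201-8654400: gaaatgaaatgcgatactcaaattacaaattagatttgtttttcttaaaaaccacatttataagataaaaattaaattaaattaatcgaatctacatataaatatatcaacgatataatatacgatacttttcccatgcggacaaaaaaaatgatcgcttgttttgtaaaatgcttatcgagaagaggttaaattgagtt
DHAD, chr3:8654601-8654800: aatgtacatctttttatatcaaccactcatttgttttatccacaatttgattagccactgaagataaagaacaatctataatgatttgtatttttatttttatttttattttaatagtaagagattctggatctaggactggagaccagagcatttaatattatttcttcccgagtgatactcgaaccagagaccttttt
CHUP1, chr3:9356001-9356200: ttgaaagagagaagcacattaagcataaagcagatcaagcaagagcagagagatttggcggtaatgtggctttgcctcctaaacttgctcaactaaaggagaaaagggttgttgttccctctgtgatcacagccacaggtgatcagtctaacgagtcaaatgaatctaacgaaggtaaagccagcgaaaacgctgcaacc

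The share of G and C was 26.5% in the CLSY4 window, 24.5% and 29% in the DHAD windows and 31.5% in the MIR8169 window. Of the 3 CHUP1 windows with the highest mean, the one shown had 44.5%, and those from chr3:9353801 and chr3:9355401 had 34.5% and 44%. Every run of 24 bases in the MIR8169 and the CHUP1 window occurs once in the genome. This held for 172 of 177 runs in the CLSY4 window, and for 156 and 134 of 177 in the DHAD windows, where the most repeated run has 6 copies. In the CLSY4 window from chr3:8837001, not shown, it held for 152 of 177, and the most repeated run has 5 copies. How the counting placed reads with several matches is not given in the sources used here. Part of the counts of the windows with repeated runs may therefore come from other loci.

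Over the whole region and per kb, CLSY4 had the highest level, with a mean of 172 normalised counts per kb in epiHybrids, 157 in epiRILs and 180 in msCol. DHAD followed with 90.3 in epiHybrids, 93.5 in epiRILs and 70.2 in msCol. CHUP1 had 12.2 in epiHybrids, 11.7 in epiRILs and 16.3 in msCol. The CHUP1 sums lay below every sum of the other genes, while the ranges of the CLSY4 and DHAD sums overlapped in epiHybrids and in epiRILs.

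In the CLSY4 region the sum over windows was between 974 and 1803 normalised counts in epiHybrids (median 1426) and between 842 and 1628 in epiRILs (median 1299), and it was 1520 in msCol12 and 1429 in msCol16. The groups overlap widely, but the epiHybrid was above its own epiRIL in 29 of 36 families. In the DHAD region epiHybrids held between 507 and 1124 counts (median 732) and epiRILs between 591 and 1109 (median 748), with 458 in msCol12 and 693 in msCol16. Every epiRIL was above the msCol mean of 576, and 28 of 36 were above both msCol libraries. The region ends at chr3:8654605, so the last window, chr3:8654601-8654800, enters the sum by its edge alone but with all its counts. That window had a median of 456 counts in epiRILs. It was the 1 of 4 DHAD windows tested against msCol whose log2 fold change in epiRILs was above 0. The CHUP1 region had between 80.6 and 167 counts in epiHybrids (median 118) and between 89.9 and 161 in epiRILs (median 111), with 132 in msCol12 and 181 in msCol16. Here 33 of 36 epiRILs and 31 of 36 epiHybrids were below both msCol libraries.

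**Figure D2:**
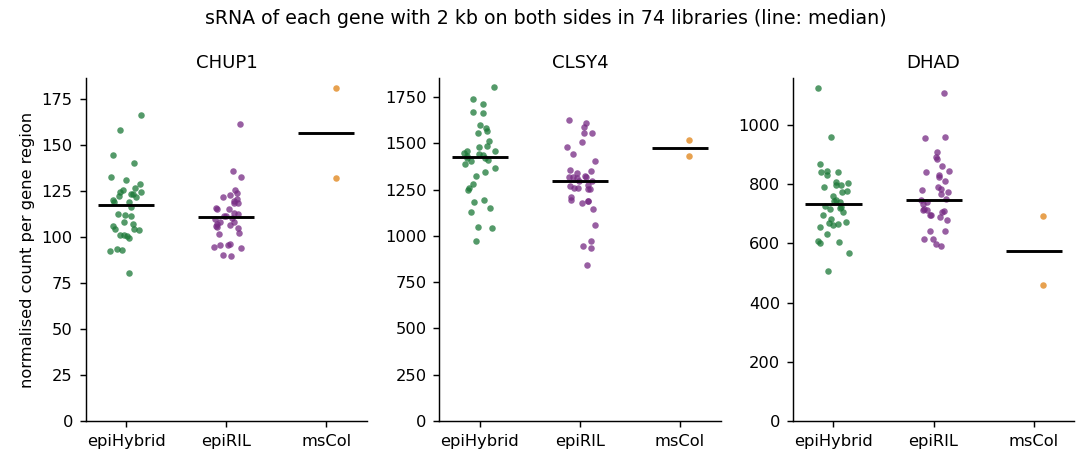
Normalised sRNA count of each gene with 2 kb on both sides in 36 epiHybrids, 36 epiRILs and 2 msCol libraries, 1 point per library, with the median as a line. In CHUP1 the msCol libraries, at 132 and 181, lie above most of the others, and in DHAD, at 458 and 693, below most of the epiRILs.

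The study asked how the epiHybrids depart from their parents, and first the epiHybrids were compared with their own epiRILs. CLSY4 was called higher, with a log2 fold change of 0.13 (SE 0.037, 1.09 times, adjusted p = 0.0194, edgeR quasi-likelihood test with family as a block, Benjamini-Hochberg adjustment over 37840 gene regions). Over all gene regions 10.2% were called, 5.12% higher and 5.05% lower. CHUP1 had a log2 fold change of 0.06 (95% interval -0.02 to 0.14) and DHAD of -0.05 (-0.13 to 0.03), and neither passed the test. DHAD was above 0 under 4 of 15 alternatives and with CG windows was called higher (log2 fold change 0.25, adjusted p = 0.031). The CLSY4 call was lost without the block (adjusted p = 0.168), with CG windows (0.107), with CHG windows (0.143) and with a flank of 1 kb (0.127), the log2 fold change was -0.35 in the gene alone, and over 15 alternatives the adjusted p ran between 0.00663 and 0.636. With library size alone as the scaling, 3532 gene regions were called higher and 1136 lower, against 1937 and 1910 with TMM, and CLSY4 was higher under both.

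Within the regions, 36 windows had a mean of at least 2 counts and were tested, 25 in CHUP1, 7 in CLSY4 and 4 in DHAD. Of these 2 were called, both higher in epiHybrids, beside 7.7% of all windows, 3.81% higher and 3.89% lower. The CLSY4 window at chr3:8837201-8837400, in the far peak, had between 160 and 414 normalised counts in epiHybrids (median 325) and between 181 and 373 in epiRILs (median 275), with 364 in msCol12 and 259 in msCol16. Its log2 fold change was 0.17 (SE 0.056, adjusted p = 0.0452 by edgeR, higher in 27 of 36 families). The DHAD window at chr3:8654201-8654400 had between 82.4 and 237 counts in epiHybrids (median 128) and between 34.4 and 249 in epiRILs (median 115), with 100.2 in msCol12 and 157 in msCol16. It had a log2 fold change of 0.29 (SE 0.068, adjusted p = 0.00423 by edgeR, higher in 29 of 36 families). The adjusted p ran up to 0.0743 for the CLSY4 window and 0.0739 for the DHAD window over 7 alternatives each. None of the 25 CHUP1 windows was called, and 3 had an unadjusted p under 0.05.

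Second, the epiHybrids were set against the mid-parent value, the mean of epiRIL and msCol on the log scale. None of the 3 regions was called by edgeR, beside 4.11% of all gene regions, 1.57% higher and 2.54% lower, although CHUP1 had an unadjusted p of 0.0268. The log2 difference was -0.18 in CHUP1 (95% interval -0.34 to -0.02, adjusted p = 0.195), 0.03 in CLSY4 (-0.14 to 0.20, adjusted p = 0.909) and 0.16 in DHAD (-0.02 to 0.33, adjusted p = 0.344). On the linear scale the median departure of a family from its mid-parent value was -16.2% in CHUP1, 3.08% in CLSY4 and 7.41% in DHAD. The epiHybrid was above the mid-parent value in 5, 21 and 28 of 36 families, in that order of genes. DHAD passed the test with library size alone (log2 difference 0.29, adjusted p = 0.0285), and the difference was below 0 under 4 of 16 alternatives for CLSY4 and 2 of 16 for DHAD.

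Last, the epiRILs were compared with msCol. CHUP1 was called lower, with a log2 fold change of -0.48 (SE 0.142, 0.715 times, adjusted p = 0.023 by edgeR), beside 7.24% of all gene regions called, 2.56% higher and 4.68% lower. In the gene itself, without flanks, epiRILs had between 68.5 and 131 counts (median 89.0) against 115 in msCol12 and 162 in msCol16, and 34 of 36 were below both. The call rested on msCol16, whose raw count of 124 became 181 by scaling, while the raw count of msCol12 was 141. Without msCol16 the log2 fold change was -0.24 (adjusted p = 0.714), with library size alone -0.33 (0.117), with CG windows -0.33 (0.207) and with CHG windows -0.37 (0.157). The calls over all gene regions also turned with the scaling, to 1633 higher and 916 lower with library size alone, against 967 and 1772 with TMM, and the median log2 fold change of all gene regions was 0.05 with library size alone, against -0.08 with TMM.

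The log2 fold change of epiRILs over msCol was -0.19 in CLSY4 (95% interval -0.49 to 0.11, adjusted p = 0.48 by edgeR) and 0.41 in DHAD (0.09 to 0.74, adjusted p = 0.113), and neither passed the test. DHAD passed with library size alone (log2 fold change 0.59, adjusted p = 0.0167), and its value was below 0 under 3 of 16 alternatives. No single window of the 3 genes was called against msCol, beside 1.92% of all windows, 1.06% higher and 0.856% lower, and 5 of 36 had an unadjusted p under 0.05. For epiHybrids against the mid-parent value no window was called either, beside 1.08%, 0.749% higher and 0.33% lower, and 2 had an unadjusted p under 0.05.

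**Figure D3:**
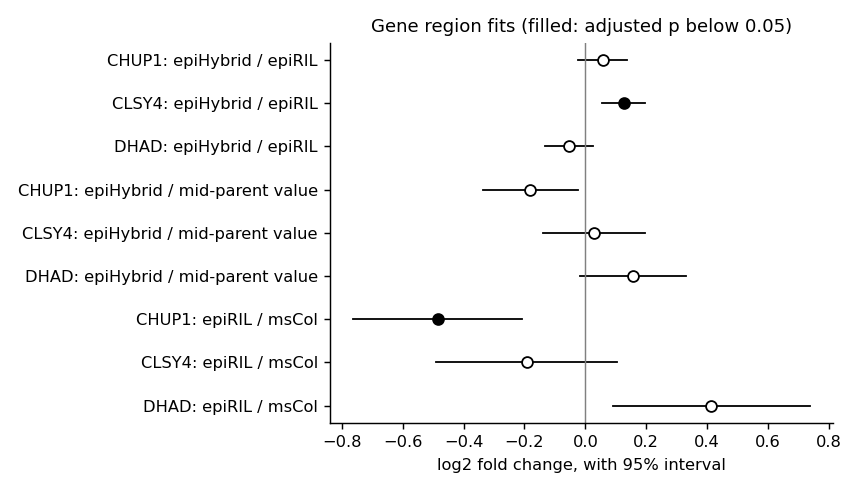
Log2 fold change of the sRNA of each gene region with its 95% interval, for epiHybrids against epiRILs, epiHybrids against the mid-parent value, and epiRILs against msCol. The 2 filled points passed the test, CLSY4 between epiHybrids and epiRILs at 0.13 and CHUP1 between epiRILs and msCol at -0.48.

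Single epiRILs were then searched for loss or gain. An epiRIL was said to have lost the sRNA of a window where its normalised count was at most 25% of the msCol mean and that mean was at least 20, and to have gained it where its count was at least 4 times the msCol mean and at least 20. This is a description without a test. No CHUP1 window reached an msCol mean of 20, and so no loss could be seen there, while 5 windows of CLSY4 and 3 of DHAD did. Of these 8 windows, 1 had lost epiRILs, 2 of them, beside 49.5% of all such windows of the genome with at least 1 and 40.2% with at least 2. None had a gain, beside 15.6% of the windows with a mean of at least 20 normalised counts over all libraries. No epiRIL had lost or gained the sRNA of a whole gene region. Of gene regions with an msCol mean of at least 20, 17.8% had at least 1 loss and 12.5% at least 2. Of those with a mean of at least 20 normalised counts over all libraries, 8.05% had a gain. The lowest epiRIL was at 57.4% of the msCol mean in CHUP1 and 57.1% in CLSY4, and the highest was at 193% in DHAD.

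The window with lost lines is the one over MIR8169. It had between 67.3 and 485 normalised counts in epiHybrids (median 387) and between 8.87 and 504 in epiRILs (median 360), with 426 in msCol12 and 432 in msCol16. The lowest epiRIL was 574 and the next was 79. In family 574 the epiHybrid had 67.3 counts and the epiRIL 8.87, which is 15.7% and 2.07% of the msCol mean of 429. In family 79 the epiHybrid had 150.9 counts (35.2%) and the epiRIL 38.1 (8.88%). The epiHybrids of both families were higher than their fathers but below the mid-parent values of 219 in family 574 and 233 in family 79, with a departure of -69.3% and -35.4%. Just outside the limit was family 503, with 146 counts in the epiHybrid and 123 in the epiRIL, or 28.7% of msCol, and after it family 579, with 260 in the epiHybrid and 173 in the epiRIL. The lowest 3 epiHybrids were those of the lowest 3 epiRILs.

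**Figure D4:**
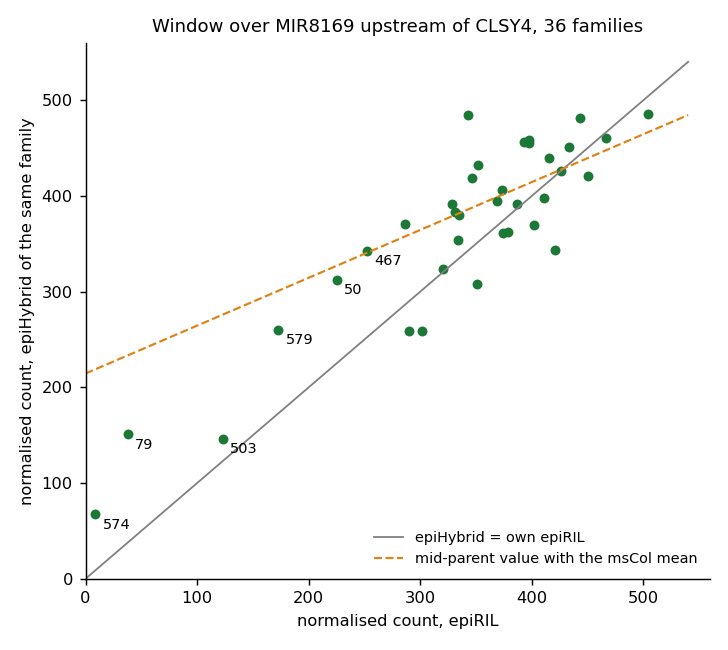
Normalised count of the window over MIR8169 in each epiHybrid (y axis) against its own epiRIL (x axis), 1 point per family, with the line of equal counts in grey and the mid-parent value for the msCol mean of 429 dashed. Families 574 and 79, whose epiRILs had 8.87 and 38.1 counts, lie above the grey and below the dashed line.

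At the 50-bp steps, the windows that start between chr3:8836201 and chr3:8836351 had almost the same counts, with medians between 387 and 390 in epiHybrids and between 360 and 363 in epiRILs, while the next window, from chr3:8836401, had medians of 5.12 and 4.46. Most of the reads thus touched the stretch chr3:8836351-8836400 that those windows share, and the mature miRNA at chr3:8836359-8836379 lies inside it. The window before, chr3:8836151-8836350, had medians of 130 in epiHybrids and 123 in epiRILs, with an msCol mean of 157. Part of the reads thus also reached bases ahead of the mature miRNA. EpiRILs 574 and 79 had lost the sRNA of the 5 windows that start from chr3:8836151 to chr3:8836351. At chr3:8836101-8836300, on the other side of the peak, the epiHybrid of family 462 had 29.3 counts, close to the mid-parent value of 34.8, and the epiRIL 68.1, where msCol had a mean of 1.4 and the medians of all epiHybrids and epiRILs were 2.79 and 2.12. It was the only gain at any step of the 3 genes in the CHH table, and the CHG table held the same gain and the same lost lines, in the windows that both tables list. In the CG table, which has fewer windows here, no CLSY4 window had a loss or gain. The MIR8169 window has 6 CG cytosines, under the 10 that a window needed, so that table could not show its loss.

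The MIR8169 window also followed the father over all families. The counts of the epiHybrids correlated with those of their epiRILs at r = 0.93 and rho = 0.76 (36 families, log2 scale, two-sided permutation test, raw p = 0.0001 for both, which is the smallest that 10000 permutations can give, and adjusted p = 0.000753 and 0.00104 over 174548 windows). Without families 574 and 79, the farthest from the median, r was 0.85. A positive correlation was called for 33.6% of all windows, and 99.8% of windows had a lower r. For the far peak of CLSY4, r was 0.50 in the window from chr3:8836801 (adjusted p = 0.00631), 0.31 in that from chr3:8837001 (adjusted p = 0.149) and 0.24 in that from chr3:8837201 (adjusted p = 0.293, permutation tests over 36 families). Within this peak the windows from chr3:8837001 and chr3:8837201 varied together, at r = 0.76 and rho = 0.76 over epiHybrids and r = 0.80 and rho = 0.72 over epiRILs (adjusted p = 0.00045 for each r and 0.0006 for each rho, permutation tests, 18 relations between leading windows of the same gene). Without the 2 farthest lines r was 0.71 over epiHybrids and 0.72 over epiRILs. Adjacent windows can share reads at their border.

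The lines that had lost the sRNA of the MIR8169 window kept the far peak. In the window from chr3:8837001 the epiHybrid and the epiRIL had 576 and 509 counts in family 574 and 669 and 482 in family 79, against a range over epiRILs between 313 and 617 and an msCol count of 461 and 534. The region sums followed in part. The epiRILs with the lowest CLSY4 sums were 50, with 1151 counts in the epiHybrid and 842 in the epiRIL, then 79, with 1458 in the epiHybrid and 937 in the epiRIL. For the whole region r was 0.54 and rho 0.45 (adjusted p = 0.00781 and 0.0286 over 37840 gene regions, permutation tests, 36 families), and 0.57 without families 50 and 79, beside a positive call in 30.2% of gene regions. With library size alone r was 0.35 and no longer passed (adjusted p = 0.122).

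In DHAD the windows of the peak differed between lines, and not all in the same direction. The window at chr3:8654601-8654800 had between 170.5 and 543 normalised counts in epiHybrids (median 388) and between 75.1 and 770.1 in epiRILs (median 456), with 177 in msCol12 and 268 in msCol16. Of the epiRILs 33 of 36 were above both msCol libraries, and the epiHybrid was below its own epiRIL in the majority of families, being above it in 9 of 36. The log2 fold change of epiRILs over msCol was 1.01 (SE 0.354), which did not pass (adjusted p = 0.134 by edgeR), and that of epiHybrids over epiRILs was -0.24 (adjusted p = 0.165). The window before it, at chr3:8654401-8654600, had between 92.9 and 493 counts in epiHybrids (median 187) and between 74.1 and 755 in epiRILs (median 166), with 154 in msCol12 and 243 in msCol16.

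EpiRIL 79 held the extreme in all 3 DHAD windows. Its family had 161 counts in the epiHybrid and 249 in the epiRIL in the window from chr3:8654201, 207 and 755 in that from chr3:8654401, and 472 and 75.1 in that from chr3:8654601. The epiRIL was thus the highest in the first 2 and the lowest in the last, while its epiHybrid was at neither end in any of them. In the window from chr3:8654201 both members of family 574 were the lowest of their group, with 82.4 counts in the epiHybrid and 34.4 in the epiRIL. In the window from chr3:8654601 this family had 543 in the epiHybrid and 750.4 in the epiRIL, next to family 340 with 434 in the epiHybrid and 770.1 in the epiRIL, the highest of all epiRILs. At the 50-bp steps epiRIL 574 had lost the window from chr3:8654251, with 93.8 counts in the epiHybrid and 36.6 in the epiRIL against 186 in msCol. EpiRILs 574 and 79 thus stood apart at both CLSY4 and DHAD, while in CHUP1 they had region sums of 123 and 124, inside the range of the others.

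**Figure D5:**
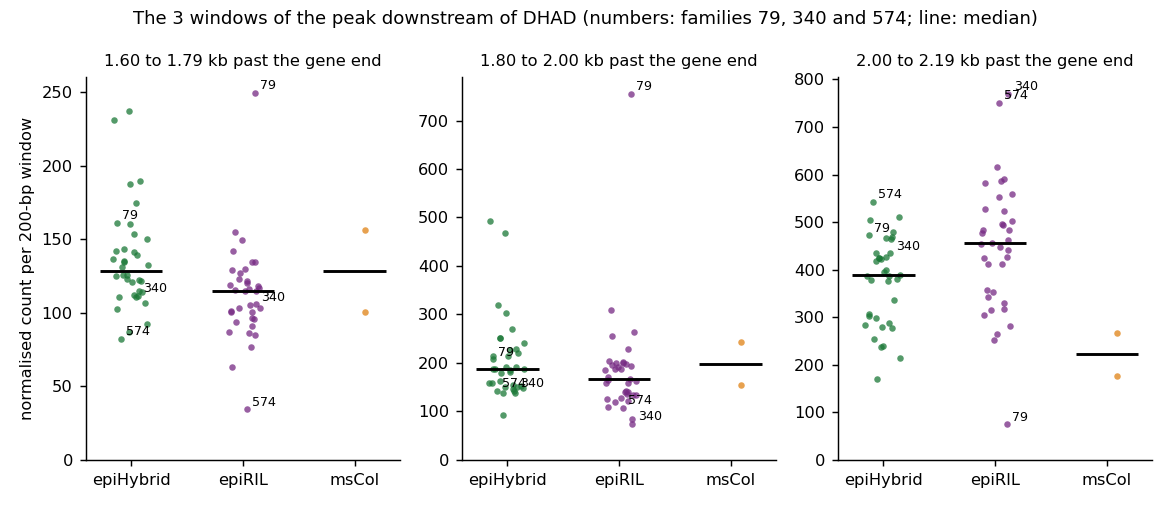
Normalised count in the 3 windows of the peak downstream of DHAD, named by their distance past the gene end, in 36 epiHybrids, 36 epiRILs and 2 msCol libraries, with the median as a line and families 79, 340 and 574 numbered. EpiRIL 79 is highest in the first 2 windows, at 249 and 755, and lowest in the last, at 75.1, while its epiHybrid is not at an end in any of them.

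Over the epiRILs the last DHAD window ran against the others. Its r was -0.62 with the window from chr3:8654201 (rho = -0.38, adjusted p = 0.003 for r and 0.0414 for rho) and -0.77 with that from chr3:8654401 (rho = -0.53, adjusted p = 0.00045 for r and 0.0036 for rho), in permutation tests over 36 lines. Leaving out the 2 farthest epiRILs, 574 and 79 in the first case and 79 and 340 in the other, gave r = -0.34 and -0.48. Over the epiHybrids r was -0.49 (rho = -0.51, adjusted p = 0.00771 and 0.00617) and -0.30 (rho = -0.35, adjusted p = 0.138 and 0.0529), so that the second relation did not pass there. The windows from chr3:8654201 and chr3:8654401 varied together, at r = 0.72 over epiHybrids and 0.66 over epiRILs (rho = 0.62 for each, adjusted p = 0.00045 and 0.00108 for r and 0.0009 and 0.0006 for rho). Fathers and offspring correlated at r = 0.52 in the window from chr3:8654201 (rho = 0.52, adjusted p = 0.00631), 0.42 in that from chr3:8654401 (rho = 0.48, adjusted p = 0.0461) and 0.13 in that from chr3:8654601 (rho = 0.27, adjusted p = 0.625), and at 0.38 for the region (rho = 0.43, adjusted p = 0.0758 for r and 0.0336 for rho), by the same permutation test.

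The DHAD peak ran past the 2-kb limit and ended near chr3:8654800. Just beyond the limit, in the window at chr3:8654751-8654950, 8 epiRILs had gained and epiRIL 79 had lost sRNA relative to an msCol mean of 28.6. EpiRILs 340 and 574 were among the 8, with 100.3 and 102 counts in the epiHybrid and 188 and 156 in the epiRIL. In family 79 the epiHybrid had 146 counts, the highest of all epiHybrids there, and the epiRIL 5.01. In the window at chr3:8654701-8654900 it was the same for 7 of these lines and epiRIL 79, with 348 counts in the epiHybrid and 8.01 in the epiRIL.

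CHUP1 had low and even sRNA. From chr3:9353801, in exon 3, to chr3:9357800, in exon 11, every window had a median between 2 and 7.29 normalised counts in epiHybrids and between 1.94 and 6.44 in epiRILs. The first 2 exons with their introns had medians below 1, as did the end of exon 11. The leading windows were those from chr3:9353801, chr3:9355401 and chr3:9356001. The last of them, in exon 6, had between 0.865 and 13.8 counts in epiHybrids (median 5.96) and between 1.08 and 10.6 in epiRILs (median 6.44), with 10.3 in msCol12 and 16.1 in msCol16. 35 of 36 epiRILs were below both msCol libraries, and the log2 fold change was -1.07 (SE 0.438, adjusted p = 0.231 by edgeR). At counts this low, the loss of a single window in 1 line was not detectable, and a gain needed at least 20 counts. The correlation between epiHybrids and their epiRILs was 0.35 for the region (rho = 0.28, adjusted p = 0.0975 and 0.231, permutation tests over 36 families), and none of the 25 windows had a called one, with r between -0.28 and 0.37.

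The gene regions whose counts over all 74 libraries were most like those of a member were sought among 28182 regions with a mean of at least 20 counts. These likenesses are descriptions, since libraries of 1 family and their depth are shared. For CHUP1 they were AT2G35050 (r = 0.71), PATL1 (0.65), for a patellin that binds membranes, and RLP9 (0.65), for a receptor-like protein. For CLSY4 they were AT2G13910, a pseudogene (0.81), AT4G05625, a long noncoding RNA (0.80), and CYP76C6, for a cytochrome P450 (0.80). For DHAD they were OBE2 (0.68), for a PHD finger protein, AT3G26860 (0.67) and AT5G55565 (0.66). All but AT3G26860 lie on other chromosomes.

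The pathways of the 3 genes were looked up by lists. The values are sRNA counts summed over each gene and 2 kb on both sides, so they can come from a neighbour. They are not expression of the gene. The calls of the RdDM list do not count CLSY4, and those of the chloroplast movement list do not count CHUP1. Of 29 genes of RdDM and DNA methylation, 2 were called higher and 3 lower in epiHybrids than in epiRILs (10.2% of all gene regions were called), with a median log2 fold change of -0.04 against -0.00178 over all gene regions. CLSY1, a relative of CLSY4 that also guides polymerase IV, had between 67.2 and 2475 counts in epiHybrids (median 466) and between 15.5 and 2551 in epiRILs (median 244), with 2064 in msCol12 and 2126 in msCol16. It rose by 0.84 (adjusted p = 0.000204 by edgeR), and without the block the value was 0.48 (adjusted p = 0.614). SUVH2, which with SUVH9 brings polymerase V to methylated DNA, fell by 0.81 (adjusted p = 2.72e-06) and SUVH9 rose by 0.55 (adjusted p = 0.0154, and 0.716 without the block). Against the mid-parent value 1.57% of all gene regions were higher and 2.54% lower, and of the list 1 was called higher, MET1, the methyltransferase that maintains CG methylation, at 0.24 (adjusted p = 0.0495), and 1 lower, NRPE1, the largest subunit of polymerase V, at -0.74 (adjusted p = 8.82e-05). Between epiRILs and msCol, where 2.56% of all gene regions were higher and 4.68% lower, AGO9, an argonaute, was called higher at 0.44 (adjusted p = 0.0297) and NRPE1 lower at -1.22 (adjusted p = 9.85e-05). NRPE1 had a median of 173 in epiHybrids and 185 in epiRILs, with 731 in msCol12 and 176 in msCol16. Without msCol12 its value was -0.05 (adjusted p = 0.951) against the mid-parent value and 0.15 (adjusted p = 0.879) against msCol. AGO9 without msCol12 was at 0.17 (adjusted p = 0.671), and MET1 did not pass without msCol12 (adjusted p = 0.28) or msCol16 (0.17).

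Of 13 genes of branched-chain amino acid synthesis, the pathway of DHAD, 0 were called between epiHybrids and epiRILs by edgeR (1 with an unadjusted p under 0.05), where 10.2% of all gene regions were called, 2 were lower in epiHybrids than the mid-parent value, where 2.54% were lower, and 4 were lower in epiRILs than in msCol, where 4.68% of all gene regions were lower. Their median log2 fold change against msCol was -0.39, beside -0.08 over all gene regions. IMDH1, an isopropylmalate dehydrogenase of leucine synthesis, had between 30.3 and 90.5 counts in epiRILs (median 56.1) against 160.2 in msCol12 and 161 in msCol16, and the groups did not overlap. It fell by 1.50 in epiRILs (adjusted p = 8.56e-07 by edgeR) and by 0.65 in epiHybrids against the mid-parent value (adjusted p = 0.00101). IIL1, a subunit of isopropylmalate isomerase, fell by 1.12 in epiRILs (adjusted p = 0.000182) and by 0.53 in epiHybrids against the mid-parent value (adjusted p = 0.00601, and 0.0838 without msCol12). BCAT3, an aminotransferase of the chloroplast, fell by 0.93 in epiRILs (adjusted p = 0.00226, and 0.0678 without msCol16).

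Of 11 genes of chloroplast movement, the process of CHUP1, 2 were called higher and 1 lower in epiHybrids than in epiRILs, beside 5.12% higher and 5.05% lower over all gene regions. KAC2, a kinesin-like protein, rose by 0.25 (adjusted p = 0.0276, and 0.0602 without the block), JAC1, an auxilin-like protein of the accumulation response, rose by 0.24 (adjusted p = 0.00288), and THRUMIN1, which bundles actin, fell by 0.22 (adjusted p = 0.0101, 0.128 without the block and 0.067 with library size alone), all by edgeR. Against the mid-parent value RPT2, a phototropin-binding protein, was lower, at -0.37 (adjusted p = 0.0385), beside 2.54% of all gene regions. Between epiRILs and msCol RPT2, at -0.60 (adjusted p = 0.0463), and JAC1, at -0.58 (adjusted p = 0.0441), were lower, beside 4.68% of all gene regions. RPT2 passed in neither comparison once an msCol library was left out (adjusted p between 0.0924 and 0.444) or with library size alone (0.149 and 0.12). JAC1 against msCol did not pass without msCol12 (adjusted p = 0.864) or with library size alone (0.104).

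Of 18 listed heterosis candidates of the study on chromosome 3, chosen by the study on plants of this panel, 4 were called higher in epiHybrids than in epiRILs and 0 lower, beside 5.12% higher over all gene regions. AT3G26810 had between 1244 and 4226 counts in epiHybrids (median 2357) and between 1033 and 2803 in epiRILs (median 1544), and rose by 0.57 (adjusted p = 2.87e-06 by edgeR). AT3G28050 rose by 0.28 (adjusted p = 0.00188, and 0.342 without the block) and AT3G23510 by 0.16 (adjusted p = 0.00495). AT3G26810 was also the 1 listed gene called lower in epiRILs than in msCol, beside 4.68% of all gene regions, at -1.19 (adjusted p = 7.18e-05 by edgeR). It had 1888 counts in msCol12 and 5420 in msCol16, and without msCol16 its value was -0.23. CHUP1, called lower at -0.48 in the same comparison, is not in this count.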

How the data were processed

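The 74 sRNA libraries comprised 36 of epiHybrids, 36 of epiRILs and 2 of msCol, each from rosette tissue. The authors ran ShortStack with default parameters on TAIR10 over 200-bp regions at 50-bp steps, separately for regions with enough CG, CHG or CHH cytosines, and deposited raw read counts of all lengths per region. Its version and the treatment of reads with several matches are not given in the sources used here. Coordinates of genes, exons, miRNAs and sequences came from RefSeq on TAIR10.1, whose chromosome lengths match the last windows of the tables. RefSeq lists CLSY4 by its other name CHR40. The 3 tables had 0 value columns without a sample.

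Non-overlapping CHH windows were scaled by TMM (edgeR 4.0.16, R 4.3.3), and a normalised count is a count divided by the effective library size relative to the mean of all libraries. Windows within 2 kb of a gene were summed to a gene region. Features averaging 2 counts or more per library were tested by the edgeR quasi-likelihood test over the whole genome at an adjusted p of 0.05, with family as a block between epiHybrids and epiRILs, since each epiHybrid is the offspring of the epiRIL of its number (34 of 36 were closest to it, with r between 0.253 and 0.775 over the 5% most variable windows), and with group means elsewhere. The mother of each family is not labelled, so both msCol libraries were used for every family. Correlations used log2(normalised count + 1) and 10000 permutations of families, the intervals of fold changes are 1.96 SE on both sides, and values were computed with NumPy 2.4.6, SciPy 1.17.1, pandas 2.3.3 and matplotlib 3.10.9. Named windows are the 3 with the highest mean of each gene and those called, lost or gained. Of each list at most 3 called genes with the largest changes are named, and the 3 most alike regions. The genes and lists were chosen with earlier results of these data known, and the candidate list is the study's own. On simulated counts over 8000 gene regions with 200 changed 2 times, 100% were recovered between epiHybrids and epiRILs, 78% against the mid-parent value and 8% between epiRILs and msCol, and for windows 90.5%, 21.5% and 2%. The simulation gave every feature the same spread, a dispersion of 0.142 for gene regions and 0.287 for windows. The recovered shares are therefore not the power for the 3 genes. Their fitted SE between epiRILs and msCol was 0.142 in CHUP1, 0.152 in CLSY4 and 0.166 in DHAD. Alternatives in scaling, filter, tool (DESeq2 1.42.0, limma 3.58.1), context, window phase, flank, block and libraries were tried. Nothing in the labels gives a batch.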

Additional observations from a re-analysis of the deposited data

How the results depend on the processing

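Of 180 alternative values of fold changes and correlations, 145 kept the direction and the side of the threshold, 14 turned direction, 17 were no longer past the threshold and 4 passed it anew. The log2 fold change of CLSY4 between epiHybrids and epiRILs was 0.12 with CG windows, 0.23 with CHG windows, 0.10 with a flank of 1 kb and 0.12 with no replicate block, all short of the threshold, and -0.35 in the gene alone, which holds under 1% of its counts. DHAD turned to 0.25 with CG windows (adjusted p = 0.031), 0.059 with shifted windows, 0.10 in the gene alone and 0.12 with 1 kb. Against the mid-parent value CLSY4 turned to -0.0098 with median-of-ratios factors, -0.00039 with shifted windows, -0.53 in the gene alone and -0.10 with 1 kb, and DHAD was 0.29 with library size alone (past the threshold), -0.18 in the gene alone and -0.093 with 1 kb. Between epiRILs and msCol CHUP1 was short of the threshold with library size alone (-0.33), CG windows (-0.33) and CHG windows (-0.37), and DHAD was 0.59 with library size alone (past it), -0.082 with CG windows, -0.49 in the gene alone and -0.38 with 1 kb. The peaks of CLSY4 and DHAD lie outside the gene, so that the gene alone leaves them out, and for DHAD a flank of 1 kb does too. The CG and CHG tables list fewer windows, so that their sums cover other parts of the peaks than the CHH sums. A window needed at least 10 cytosines. The MIR8169 window has 6 CG and 12 CHG cytosines. The DHAD window from chr3:8654201 has 14 and 1, and that from chr3:8654601 has 4 and 11. The cause of the remaining changes was not tested.

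Leaving out msCol replicates in turn gave CHUP1 between -0.70 and -0.24, CLSY4 between -0.24 and -0.15 and DHAD between 0.15 and 0.74 in epiRILs against msCol, and between -0.29 and -0.06, 0.0062 and 0.05, and 0.02 and 0.32 in epiHybrids against the mid-parent value. The lone msCol library was then taken to vary like the other groups. The 2 windows called became 1 in 1 of 3 shifts of the windows, while the other shifts kept 1 call in CLSY4 and 1 in DHAD, and also 1 with a mean of at least 1 count, with median-of-ratios factors and without families 12 and 568, 4 with library size alone, and 0 with no replicate block and with CHG windows. The block could not be fitted against msCol, which has no family. The correlation of fathers and offspring passed for CHUP1 in the gene alone (0.43) and for DHAD with CG windows (0.44), and failed for CLSY4 with library size alone (0.35), CG windows (0.27) and the gene alone (0.024). With limits of 50% and 2 times in place of 25% and 4 times, 5 epiRILs had lost and 1 had gained sRNA in CLSY4, and 5 had lost and 21 had gained in DHAD. With the median epiRIL in place of msCol, 1 had lost and 1 had gained in DHAD. With CG windows, which leave out the MIR8169 window, 0 had lost in CLSY4 and 1 had gained in DHAD. With msCol12 alone 3 had gained and with msCol16 alone 1 had lost in DHAD. The window correlations without families 12 and 568 and without 79 and 574, chosen after seeing the data, kept r between 0.847 and 0.933 for the MIR8169 window.

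Of all gene regions, 3847 were called between epiHybrids and epiRILs, against 2063 with no replicate block, 2118 with CHG windows and 1295 in genes alone. Against the mid-parent value 1556 were called, against 2843 with library size alone, 863 with CG windows, 556 with CHG windows, 569 in genes alone and 665 without msCol16. Between epiRILs and msCol 2739 were called, against 1279 with CHG windows, 1241 in genes alone and 986 without msCol16. Of all windows 13447 were called, against 7657 with no replicate block, 5624 with CG windows and 4567 with CHG windows. With 2 msCol libraries, and at a few counts per window in CHUP1, depth and number of libraries limit what could be seen.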
